A study of Mus musculus with 17 samples.

Results

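Axon guidance ligands and receptors are the secreted and membrane-bound cues, and the cell-surface proteins that read them, by which growing axons and migrating neurons find their way. The genes described here were taken by their symbols: the semaphorins of classes 3 to 7, the plexins, Nrp1 and Nrp2, the Eph receptors and the ephrins, Slit1 to Slit3, Robo1 to Robo4, the netrins, the Unc5 genes and Dcc. This gave 68 of 18193 genes with a probe set on the array, 35 ligands and 33 receptors, and no expression value was used to choose them. Each gene is represented by 1 probe set, the one with the highest mean over all arrays. In at least 1 group 57 of the 68 had a mean level above 5.43, the 95th percentile of the group means of 38 olfactory receptor genes, which serves as a bound for a dim signal. The other 11 (Epha1, Epha2, Epha8, Epha10, Ntn1, Ntn3, Ntn5, Robo3, Sema3b, Sema3d and Slit3) lay at or below it in all groups, where signal and background are not told apart.

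The 17 arrays carried total RNA of cortical cells sorted by flow cytometry from mice of the hGFAP eGFP line. Its green fluorescent protein is driven by the human GFAP promoter, so the gates follow the activity of a transgene. The groups were GFP+ Prominin+ cells at embryonic day (E) 18 (n = 4), GFP-high Prominin+ cells at E14 (n = 4), GFP-low Prominin+ cells at E14 (n = 3), GFP-high cells at E14 (n = 3) and GFP-low cells at E14 (n = 3). The last 2 groups carry labels without a Prominin gate and are called ungated. Prominin is a protein of the apical membrane of neural progenitors, encoded by Prom1. Every animal carried the transgene. The labels name no litters, so p-values cover the spread among the samples at hand, part of which may be technical. All 11 Prominin-selected arrays and ungated GFP-high replicate 1 were labelled with a MessageAmp II kit, and the other 5 ungated arrays with an Affymetrix kit. Comparisons of Prominin-selected with ungated cells therefore cross the labelling kit for all but 1 array.

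Semaphorins signal through plexins, with neuropilins as co-receptors for most class 3 members. Ephrins bind Eph receptor tyrosine kinases on neighbouring cells, and Slits bind Robo receptors. Some netrins bind Dcc, which usually mediates attraction, and Unc5 receptors, which mediate repulsion. In the developing cortex these proteins are known for steering axons, for the migration of young neurons and of interneurons, and for contacts among progenitors in the ventricular zone.

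Robo1, Sema4f, Plxnd1 and Sema5a were the 4 genes called different between GFP-high and GFP-low cells both with and without the Prominin gate. In RefSeq (build GRCm38.p6) Robo1 spans chr16:72027518-73047491, Sema4f chr6:82911884-82939769, Plxnd1 chr6:115954811-115995339 and Sema5a chr15:32244813-32696341. Promoters of 3 of them, the 250 bases before an annotated start, are shown because these genes were called in both sorts. RefSeq listed a promoter for 58 of the 68 genes. The Robo1 promoter lies at chr16:72662899-72663148 on the plus strand, at a start inside the annotated gene. The Sema4f promoter lies at chr6:82939770-82940019 on the minus strand, and the Sema5a promoter at chr15:32244563-32244812 on the plus strand. They are written 5′ to 3′ in the direction of the gene. Capitals mark the E-box CANNTG, a palindrome read by basic helix-loop-helix factors.
Robo1: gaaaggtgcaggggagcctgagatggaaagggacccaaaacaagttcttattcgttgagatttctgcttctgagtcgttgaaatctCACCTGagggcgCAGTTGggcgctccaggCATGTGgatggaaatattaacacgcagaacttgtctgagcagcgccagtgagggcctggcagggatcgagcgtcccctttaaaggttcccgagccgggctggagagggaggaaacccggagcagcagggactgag
Sema4f: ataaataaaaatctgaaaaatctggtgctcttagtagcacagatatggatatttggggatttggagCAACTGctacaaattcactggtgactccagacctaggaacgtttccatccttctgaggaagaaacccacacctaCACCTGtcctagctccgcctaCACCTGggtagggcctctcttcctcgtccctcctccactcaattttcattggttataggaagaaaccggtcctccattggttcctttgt
Sema5a: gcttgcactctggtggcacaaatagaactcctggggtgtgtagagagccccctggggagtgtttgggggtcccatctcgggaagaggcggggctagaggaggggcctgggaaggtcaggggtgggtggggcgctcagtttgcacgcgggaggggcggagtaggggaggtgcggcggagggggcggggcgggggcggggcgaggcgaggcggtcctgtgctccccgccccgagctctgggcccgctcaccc

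The Robo1 and Sema4f promoters held 3 E-boxes each, and the Sema5a promoter held 0. The promoter listed for Plxnd1, not printed because it lies within the annotated gene and may hold transcribed bases, held 0 E-boxes and 1 GC box. The GC box GGGCGG, searched on both strands, occurred 5 times in the Sema5a promoter, where some matches share bases with each other, and 0 times in those of Robo1 and Sema4f. The motif ACAAAG, bound by Sox factors and also searched on both strands, occurred 1 time in Sema4f, apart from its E-boxes, and 0 times in those of Robo1, Plxnd1 and Sema5a. Among all 32851 promoters 66.2% held an E-box, 32.7% a GC box and 16.5% the Sox motif. Among the 74 promoters listed for the guidance genes the shares were 47.3%, 71.6% and 9.46%. These are matches of letters within this window and show no binding.

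Levels are log2(intensity + 16), quantile normalized on that scale, so 4 is the lowest possible level. The median over all genes was 6.30. A level is compared between groups and not between genes, because each gene has its own probes. Differences are given on the same log2 scale with their standard error (SE) from limma's moderated fit, and a gene is called at an adjusted p under 0.05, Benjamini-Hochberg adjusted over all 18193 genes. The pseudocount of 16 makes differences of dim genes smaller than the differences in signal, and no fold is given where the lower group lies at or below the dim bound. A gene in these bulk samples can be lower because fewer cells of a type are present or because each cell holds less of its RNA, and fewer cells of a type and less RNA per cell cannot be told apart.

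The sorts differed in their cell-type markers and in their control signals. All 12 radial glia markers were above the dim bound in all 5 groups, and Prom1 itself lay at 8.84 in E18 cells, 10.93 and 10.19 in Prominin-selected GFP-high and GFP-low cells, and 10.78 and 8.63 in ungated GFP-high and GFP-low cells. Of the 10 endothelial markers, 2 or 3 were above the bound in each group. Pecam1 lay below it in all groups, at 4.30 to 4.46, and Cldn5 lay at 4.84 to 5.86. Esam, at 5.61 to 6.55, and Ramp2, at 5.68 to 6.36, were above it in all 5 groups. The macrophage marker Csf1r lay at 5.70 to 6.63, and Col1a2, of the pericyte and meninges list, at 5.38 to 5.83. The summed intensities of 10 endothelial markers, 10 pericyte and meninges markers and 8 microglia markers stayed between 124 and 336 on every array. The log2 signal of the Gapdh 3′ control probes over that of the 5′ ones, which is larger where RNA is shorter, was −0.21 to 1.00 at E18, 0.54 to 2.29 on the 7 E14 Prominin-selected arrays and −0.25 to 0.18 on the 6 ungated arrays. The 18S signal was 714 to 2673, 3152 to 6896 and 300 to 1377 on the same sets. Among the E14 Prominin-selected arrays, GFP-high replicate 1, with a Gapdh difference, 3′ less 5′, of 0.54 and a dap spike signal of 4145, and GFP-low replicate 2, with a Gapdh difference of 0.92, stood apart from the other 5, which lay at 1.56 to 2.29.

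**Figure D1:**
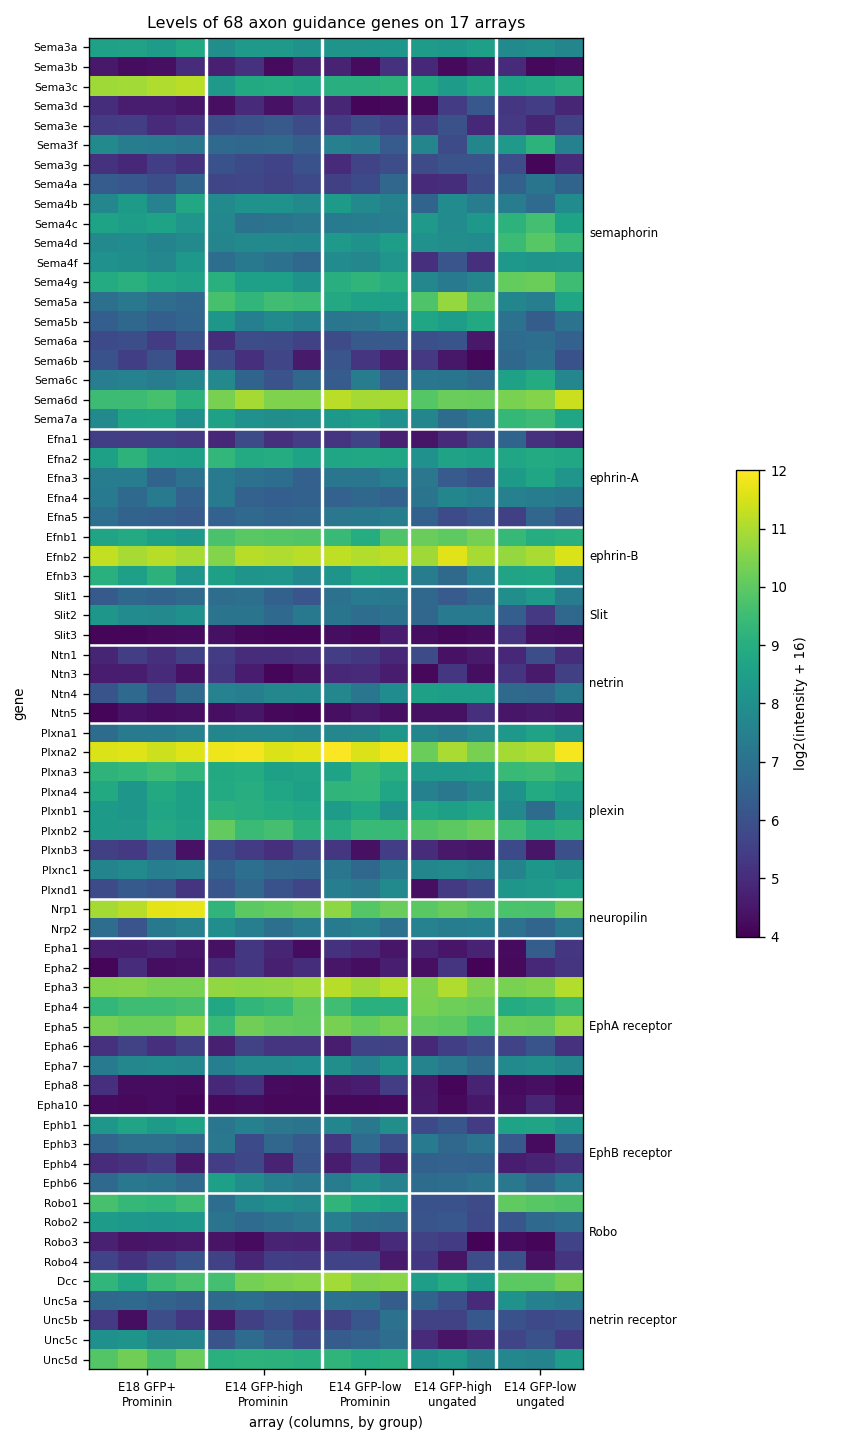
Level of each of the 68 guidance genes (rows, by family) on each of the 17 arrays (columns, by group), as log2(intensity + 16). A row can be read across the columns, for example the Robo1 row, bright in ungated GFP-low cells at 9.82 to 10.03 and dark in ungated GFP-high cells at 5.85 to 6.01.

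The first comparison asked which guidance genes differ between sorted cells with high and low GFP when both carry Prominin. At E14, 4 of the 68 genes were called, 3 lower and 1 higher in GFP-high Prominin-selected cells, where 1.68% of all genes were called, 1.2% lower and 0.478% higher. The Slit receptor gene Robo1, the plexin gene Plxnd1, known as the receptor of Sema3e, and the membrane semaphorin Sema4f fell, and Sema5a, a membrane semaphorin with thrombospondin repeats, rose. The groups did not overlap for 10 of the 68 genes, against 13.2% of all genes. The median difference over the 68 genes was −0.12, and −0.01 over all genes. An unadjusted p under 0.05 was reached by 17 of the 68, a count that is not set against its share over all genes.

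Robo1 had levels of 6.89, 7.73, 8.00 and 7.78 in the 4 GFP-high Prominin-selected samples, against 9.22, 8.77 and 8.63 in the 3 GFP-low ones. Every GFP-high array was below every GFP-low array, and Robo1 was 2.42-fold lower in GFP-high cells (−1.27 ± 0.25 SE, limma adjusted p = 0.0319). The other 2 Robo1 probe sets were dimmer and gave −0.87 ± 0.30 and 0.55 ± 0.36, so the gene's call rests on its brightest probe set. Plxnd1 had levels of 6.11, 6.63, 6.0 and 5.68 in GFP-high samples, against 7.42, 7.20 and 7.79 in GFP-low samples. It was 2.57-fold lower, again without overlap (−1.36 ± 0.27, adjusted p = 0.0325). Sema4f had levels of 6.88, 7.24, 7.03 and 6.71 in GFP-high samples, against 7.87, 7.72 and 8.17 in GFP-low samples. It was 1.94-fold lower without overlap (−0.95 ± 0.19, adjusted p = 0.0309). Sema5a had levels of 9.67, 9.26, 9.55 and 9.44 in GFP-high samples, against 8.83, 8.59 and 8.50 in GFP-low samples. It was 1.79-fold higher without overlap (0.84 ± 0.17, adjusted p = 0.0325). All 4 kept their direction in the alternatives run, but none kept its call in all of them. Of the 68 genes, 1 was called without GFP-high replicate 1 or without GFP-high replicate 3, and 0 were called without GFP-high replicate 4 or without any single GFP-low array. With GFP-high replicate 1 and also GFP-low replicate 2 left out, the arrays that stood apart, 0 were called. The differences were then −1.09 for Robo1 (adjusted p = 0.0825), −1.50 for Plxnd1 (0.12), −1.02 for Sema4f (0.107) and 0.75 for Sema5a (0.154).

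The marker lists moved with this contrast. The summed intensity of 15 neuron markers was 13621 to 17193 in GFP-high and 24538 to 26304 in GFP-low Prominin-selected samples, with 7 of 15 genes called lower. That of 8 Cajal-Retzius markers was 684 to 839 in GFP-high and 3642 to 5022 in GFP-low samples, with 6 of 8 called lower, among them Reln at 9.02 in GFP-high and 11.82 in GFP-low samples. That of 12 radial glia markers was 14125 to 19155 in GFP-high and 9419 to 10839 in GFP-low samples, with 4 of 12 called higher and the other 8 differences positive. That of 9 basal progenitor markers was 12933 to 14984 in GFP-high and 8911 to 9386 in GFP-low samples. Of these 9, 1 was called higher and the other 8 differences were positive. Their part in the differences of the guidance genes was not tested.

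Without the Prominin gate, more guidance genes separated GFP-high from GFP-low cells at E14. Here 24 of the 68 were called, 17 lower and 7 higher in GFP-high cells, where 15.8% of all genes were called, 8.16% lower and 7.61% higher. The median difference over the 68 genes was −0.30, and −0.01 over all genes, and the groups did not overlap for 37 of the 68, against 34.3% of all genes. The falls included Robo1, the netrin receptors Dcc, Unc5a and Unc5c, Ephb1, 4 of 6 class 4 semaphorins and Slit1. The rises were both class 5 semaphorins, Ntn4, Efnb1, Epha4, Ephb4 and Plxnb2. When single arrays were left out, 16 to 24 genes were called, the lowest count without ungated GFP-high replicate 2. Of the ungated arrays only GFP-high replicate 1 was labelled with the MessageAmp kit. With the kit as a covariate 18 genes were called, 6 higher and 12 lower. That setting gives the same result as leaving this 1 array out, so it is no separate check on the kit.

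Among the semaphorins, 9 of 20 were called in the ungated contrast. Sema4f had levels of 5.07, 6.12 and 5.11 in GFP-high samples, against 8.26, 8.15 and 8.16 in GFP-low samples, so its GFP-high mean lay at the dim bound (−2.76 ± 0.30, adjusted p = 0.00156). Sema4g, another membrane semaphorin, had 7.70, 7.34 and 7.63 in GFP-high samples, against 10.12, 10.21 and 9.51 in GFP-low samples. It was 5.25-fold lower without overlap (−2.39 ± 0.24, adjusted p = 0.00117). Sema7a, which is anchored to the membrane by a lipid, was 3.80-fold lower (−1.93 ± 0.29, adjusted p = 0.00528), and Sema4d, the ligand of plexin-B1, was 3.11-fold lower (−1.64 ± 0.20, adjusted p = 0.00214). All 6 class 4 semaphorins had negative differences, and the 7 class 3 members gave 0 calls, with 2 at an unadjusted p under 0.05. The class 5 semaphorins went the other way. Sema5a had 9.81, 10.72 and 9.85 in GFP-high samples, against 7.68, 7.41 and 8.73 in GFP-low samples, and was 4.56-fold higher (2.19 ± 0.41, adjusted p = 0.012), a call at the threshold without GFP-low replicate 1 (adjusted p = 0.0501). Sema5b had 8.72, 8.49 and 8.85 in GFP-high samples, against 6.98, 6.37 and 7.04 in GFP-low samples, and was 3.72-fold higher (1.89 ± 0.24, adjusted p = 0.00242). The groups did not overlap for either gene. The other 3 Sema5a probe sets gave 2.36 ± 0.26, 1.12 ± 0.24 and 0.11 ± 0.41, the last at a mean level of 4.82, below the dim bound.

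Among the plexins, Plxnd1 had 4.32, 5.35 and 5.73 in ungated GFP-high samples, around the dim bound, against 8.23, 8.32 and 8.50 in GFP-low samples (−3.22 ± 0.36, adjusted p = 0.00162). All 4 plexin-A genes, which pair with neuropilins for class 3 semaphorins, had negative differences, of which Plxna3 (−1.01 ± 0.17, 2.01-fold lower, adjusted p = 0.0079) and Plxna4 (−1.05 ± 0.26, adjusted p = 0.035) were called. The Plxna4 call was lost without ungated GFP-high replicate 1, 2 or 3 or GFP-low replicate 2 or 3, at adjusted p of 0.0701 to 0.11. Plxnb2, a receptor gene for class 4 semaphorins, rose 1.70-fold in GFP-high cells (0.77 ± 0.20, adjusted p = 0.0467), and held its call in 5 of 15 alternatives. Neither neuropilin was called: Nrp1 differed by 0.10 ± 0.21 (adjusted p = 0.818) and Nrp2 by 0.52 ± 0.21 (adjusted p = 0.155).

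Among the ephrins and Eph receptors, Ephb1 had 5.75, 6.13 and 5.42 in ungated GFP-high samples, against 8.64, 8.68 and 8.25 in GFP-low samples. It was 6.76-fold lower without overlap (−2.76 ± 0.24, adjusted p = 0.000811). The lipid-anchored ephrin Efna3 had 7.17, 6.31 and 5.98 in GFP-high samples, against 8.37, 8.73 and 8.16 in GFP-low samples, and was 3.82-fold lower (−1.93 ± 0.33, adjusted p = 0.00889). The transmembrane ephrin Efnb1 had 10.16, 10.02 and 10.34 in GFP-high samples, against 9.35, 8.95 and 9.07 in GFP-low samples, and was 2.07-fold higher (1.05 ± 0.19, adjusted p = 0.0106). Epha4, a receptor that binds ephrins of both classes, was 2.18-fold higher (1.13 ± 0.20, adjusted p = 0.00952). Ephb4, which binds Efnb2, was at 6.50 on each of the 3 GFP-high arrays, and at 4.62, 4.75 and 5.07 in GFP-low samples, all below the dim bound (1.69 ± 0.18, adjusted p = 0.0015). Of 9 EphA receptors Epha4 alone was called, and 2 of the 9 had an unadjusted p under 0.05.

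Among the Slit and netrin systems the fall of Robo1 was the largest difference of the 68 genes. Robo1 had 6.0, 6.01 and 5.85 in ungated GFP-high samples, just above the dim bound, against 10.03, 9.91 and 9.82 in GFP-low samples, and was 15.6-fold lower (−3.97 ± 0.16, adjusted p = 0.000407). Both other Robo1 probe sets were negative and called as well, at −2.21 ± 0.34 and −1.16 ± 0.30. Robo2 differed by −0.58 ± 0.25 and was not called (adjusted p = 0.186). Slit1 was 2.47-fold lower (−1.31 ± 0.27, adjusted p = 0.0189), a call lost without GFP-high replicate 1, 2 or 3 or GFP-low replicate 1 (adjusted p 0.0509 to 0.0682). Dcc had 8.45, 8.94 and 8.36 in GFP-high samples, against 9.99, 9.99 and 10.35 in GFP-low samples, and was 2.89-fold lower without overlap (−1.53 ± 0.22, adjusted p = 0.00446). Ntn4, a secreted netrin related to laminins, had 8.56, 8.49 and 8.50 in GFP-high samples, against 6.75, 6.63 and 7.23 in GFP-low samples. It was 3.14-fold higher without overlap (1.65 ± 0.21, adjusted p = 0.00243).

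In the ungated samples the summed neuron markers were 10833 to 11405 in GFP-high and 43091 to 50101 in GFP-low cells, with 14 of 15 genes called lower. The summed radial glia markers were 31052 to 35206 in GFP-high and 6048 to 8644 in GFP-low cells, with 12 of 12 called higher. The summed basal progenitor markers were 19051 to 20115 in GFP-high and 4593 to 6644 in GFP-low cells, with 9 of 9 called higher. The summed Cajal-Retzius markers were 246 to 275 in GFP-high and 452 to 654 in GFP-low cells, with 1 of 8 called higher and 1 called lower. Their part in the differences of the guidance genes was not tested. Of the 24 genes called here, 23 had the same sign in the Prominin-selected contrast. Called or not, 47 of the 57 guidance genes above the dim bound had the same sign in both. The share over all genes was not counted, so no conclusion about the guidance genes is drawn from these counts.

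**Figure D2:**
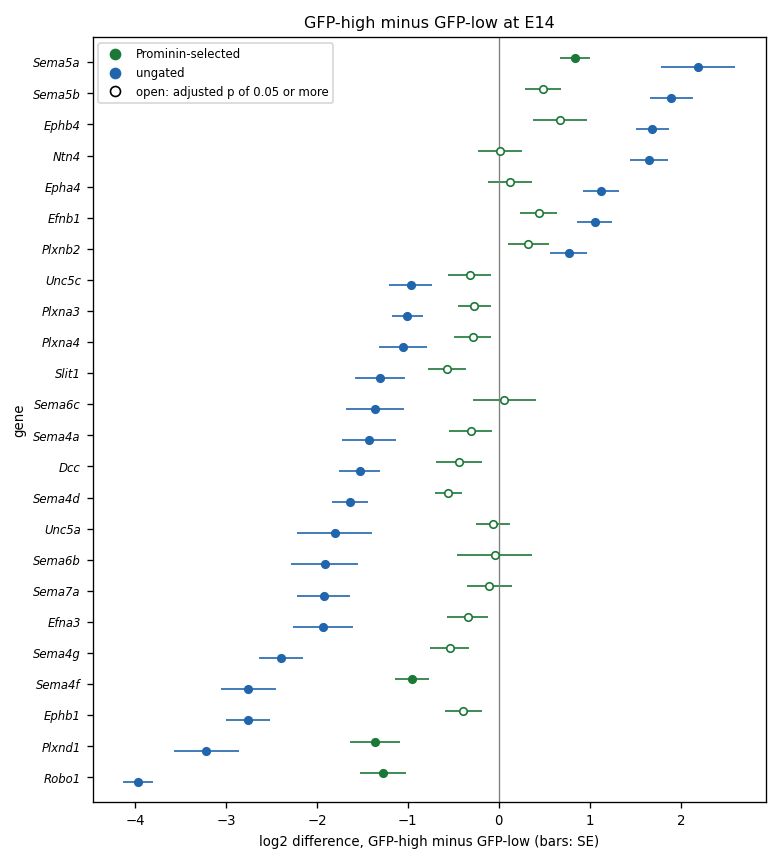
Difference between GFP-high and GFP-low cells at E14 (log2, bars are SE) for the 24 genes called in ungated cells, in Prominin-selected samples (green, n = 4 GFP-high and 3 GFP-low) and ungated samples (blue, n = 3 each). Filled points have an adjusted p under 0.05: all 24 blue points and the 4 green points of Sema5a, Sema4f, Plxnd1 and Robo1.

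The size of the GFP contrast was then compared between Prominin-selected and ungated cells in a fit of all 17 arrays. The contrasts differed for 11 of the 68 genes, against 7.7% of all genes. For 9 genes the difference of contrasts was positive (3.87% of all genes) and for 2 it was negative (3.83%). All 9 positive ones were lower in GFP-high cells in the ungated sort, by more than with the gate, and the 2 negative ones, Sema5b and Ntn4, were higher in GFP-high cells in the ungated sort. The median difference of contrasts was 0.23 over the 68 genes and 0.00 over all genes. Robo1 differed by −1.27 with the gate and −3.97 without it (2.69 ± 0.33, adjusted p = 0.00023). Ephb1 differed by −0.39 with the gate and −2.76 without it (2.37 ± 0.31, adjusted p = 0.000352). Ntn4 differed by 0.01 with the gate and 1.65 without it (−1.64 ± 0.34, adjusted p = 0.00605), and Sema5b by 0.49 and 1.89 (−1.41 ± 0.31, adjusted p = 0.00854). The others were Sema4g (1.85), Plxnd1 (1.85), Sema7a (1.82), Sema4f (1.80), Unc5a (1.74), Efna3 (1.59) and Sema4d (1.08). The Efna3 call was lost without ungated GFP-high replicate 3 (adjusted p = 0.0599) or ungated GFP-low replicate 2 (adjusted p = 0.0583). Over the single arrays left out, 10 to 15 genes were called.

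**Figure D3:**
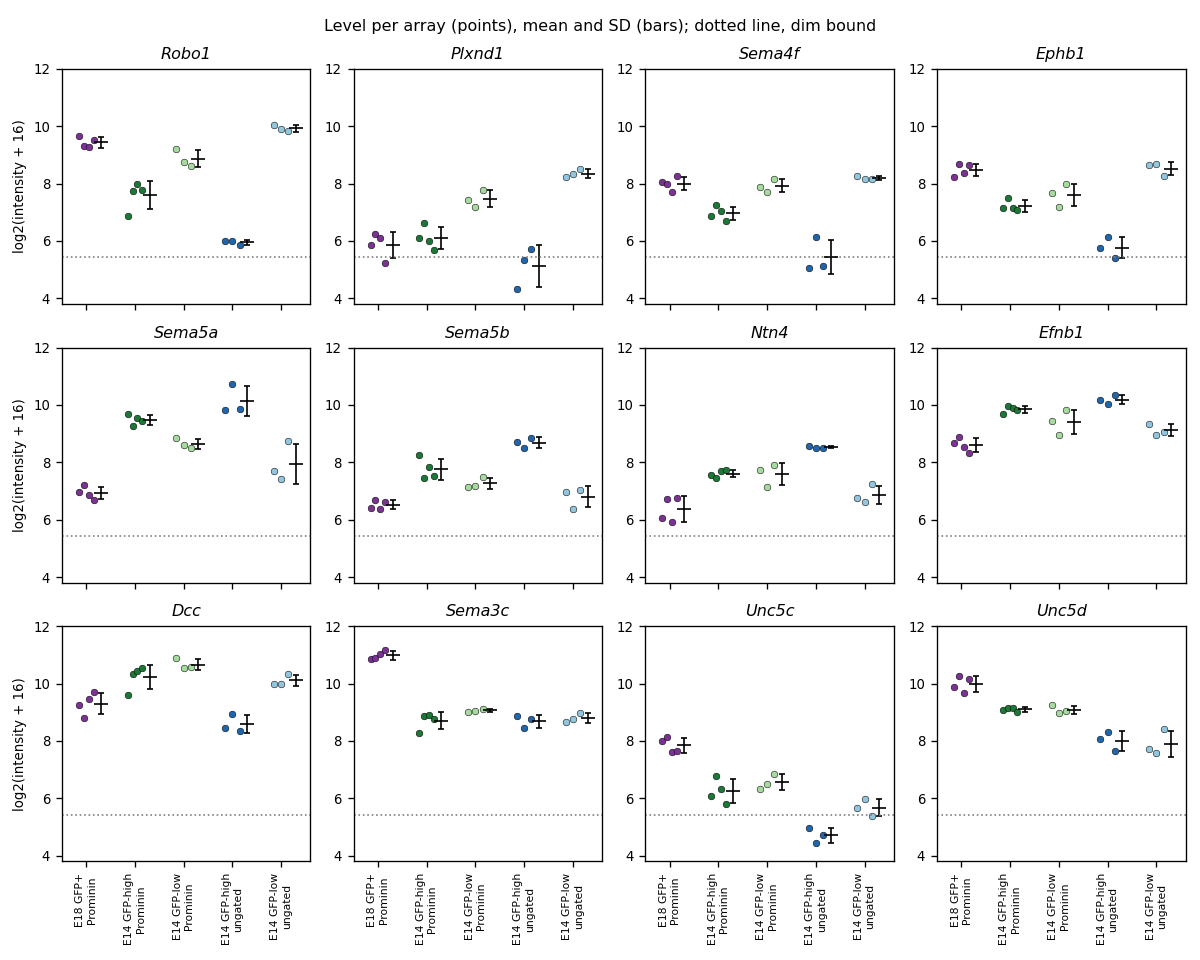
Level on each array (points) of 12 guidance genes in the 5 groups, with mean and SD (bars) and the dim bound of 5.43 (dotted line). Robo1, Plxnd1, Sema4f and Ephb1 are lowest in ungated GFP-high cells, whereas Sema5a, Sema5b and Ntn4 are lowest at E18 and Sema3c is highest there.

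The next comparisons asked how Prominin-selected cells differ between E18 and E14. At E18 the labels give GFP+ cells without a division into high and low, so the same 4 arrays were set against each E14 group in turn, and both comparisons share them. Against E14 GFP-high cells 24 of the 68 genes were called, 14 higher and 10 lower at E18, where 26.7% of all genes were called, 10.2% higher and 16.5% lower. The median difference was 0.03 over the 68 genes and −0.07 over all genes. Against E14 GFP-low cells 20 of the 68 were called, 8 higher and 12 lower, where 17.4% of all genes were called, 6.02% higher and 11.4% lower. The median was −0.02 over the 68 genes and −0.10 over all genes. Sema3c, Unc5c, Robo2, Nrp1, Sema4c, Slit2, Unc5d and Ephb1 were higher at E18 in each comparison, and Sema5a, Sema6d, Ntn4, Efnb1, Sema5b, Dcc and Plxnb2 were lower.

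Of the secreted class 3 semaphorins, Sema3c had 10.85, 10.88, 11.04 and 11.17 at E18, against 8.29, 8.86, 8.92 and 8.77 in E14 GFP-high samples and 9.01, 9.06 and 9.13 in E14 GFP-low samples. The E18 arrays lay above all E14 arrays. It was 4.84-fold higher than in GFP-high cells (2.28 ± 0.16, adjusted p = 1.51e-06) and 3.78-fold higher than in GFP-low cells (1.92 ± 0.17, adjusted p = 3.1e-05). Its co-receptor gene Nrp1 had 10.91, 11.13, 11.66 and 11.69 at E18, against 9.23, 9.99, 10.10 and 10.30 in GFP-high and 10.63, 9.90 and 10.18 in GFP-low samples. The Nrp1 difference was 1.45 ± 0.26 (2.72-fold, adjusted p = 0.00131) against GFP-high cells and 1.11 ± 0.28 (2.16-fold, adjusted p = 0.0171) against GFP-low cells. The second call was lost without E14 GFP-low replicate 2 (0.94, adjusted p = 0.0766) or replicate 3 (1.08, adjusted p = 0.0522). Nrp2 was not called (−0.47 ± 0.29 and −0.34 ± 0.31, adjusted p = 0.271 and 0.515). Sema3a and Sema3f were higher against GFP-high cells by 0.44 ± 0.14 and 0.75 ± 0.25, with calls kept in 8 and 7 of 17 alternatives. Sema3e and Sema3g went the other way and were called lower against GFP-high cells, without overlap. Sema3e had 4.98 to 5.45 at E18, against 5.87 to 6.24 in GFP-high samples. Sema3g had 4.94 to 5.48 at E18, against 5.61 to 6.02. The E18 levels of both lay around the dim bound.

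Of the membrane semaphorins, Sema5a had 6.96, 7.21, 6.85 and 6.68 at E18, against 9.26 to 9.67 in GFP-high and 8.50 to 8.83 in GFP-low samples at E14. It was 5.87-fold lower than in GFP-high cells (−2.55 ± 0.16, adjusted p = 7.2e-07) and 3.28-fold lower than in GFP-low cells (−1.71 ± 0.17, adjusted p = 5.6e-05), with no overlap in either. Sema5b was 2.35-fold lower than in GFP-high cells (−1.24 ± 0.18, adjusted p = 0.000348). Its difference from GFP-low cells was −0.75 ± 0.20 (adjusted p = 0.0218), and that call was lost without E14 GFP-low replicate 3 or E18 replicate 2 or 4 (adjusted p 0.0571 to 0.0854). Sema6d, a ligand of plexin-A1, had 9.49, 9.49, 9.68 and 9.13 at E18, against 10.36, 10.92, 10.45 and 10.46 in GFP-high and 11.19, 10.91 and 10.96 in GFP-low samples. It was 2.14-fold lower than in GFP-high cells (−1.10 ± 0.17, adjusted p = 0.000419) and 2.97-fold lower than in GFP-low cells (−1.57 ± 0.18, adjusted p = 0.00016). Sema4c, which binds plexin-B2, was 2.36-fold higher than in GFP-high cells (1.24 ± 0.18, adjusted p = 0.000249) and 2.14-fold higher than in GFP-low cells (1.10 ± 0.19, adjusted p = 0.0021). Sema4f, at 8.06, 7.97, 7.70 and 8.27, was 2.05-fold higher at E18 than in GFP-high cells (1.04 ± 0.17, adjusted p = 0.00073), and 0.08 ± 0.19 apart from GFP-low cells.

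Of the Slit and Robo genes, Robo1 had 9.67, 9.32, 9.26 and 9.50 at E18, above all 7 E14 Prominin-selected arrays. It was 3.58-fold higher than in GFP-high cells (1.84 ± 0.23, adjusted p = 9.82e-05), and not called against GFP-low cells. Robo2, a second Slit receptor gene, had 8.40, 8.28, 8.21 and 8.28 at E18, against 7.09, 6.79, 7.01 and 7.17 in GFP-high and 7.41, 6.96 and 6.85 in GFP-low samples. Robo2 was 2.43-fold higher than in GFP-high cells (1.28 ± 0.15, adjusted p = 7.08e-05) and 2.33-fold higher than in GFP-low cells (1.22 ± 0.17, adjusted p = 0.00044). The ligand gene Slit2 had 8.24, 7.85, 7.78 and 8.01 at E18, against 6.75 to 7.23 in GFP-high and 6.86 to 7.10 in GFP-low samples. Slit2 was 1.91-fold higher than in GFP-high cells (0.94 ± 0.15, adjusted p = 0.000679) and 1.98-fold higher than in GFP-low cells (0.99 ± 0.17, adjusted p = 0.00169). Slit1 was not called (−0.04 ± 0.19 and −0.61 ± 0.21, adjusted p = 0.913 and 0.0632).

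Of the 5 netrin receptor genes, Unc5c and Unc5d were called higher at E18, Dcc was called lower, and Unc5a and Unc5b were not called in either comparison. Unc5a differed by −0.12 ± 0.17 from GFP-high and −0.18 ± 0.18 from GFP-low cells, and Unc5b by −0.12 ± 0.39 and −1.03 ± 0.43. Unc5c, a repulsive receptor gene, had 8.01, 8.14, 7.61 and 7.65 at E18, against 6.09, 6.78, 6.33 and 5.79 in GFP-high and 6.34, 6.52 and 6.86 in GFP-low samples. It was 3.04-fold higher than in GFP-high cells (1.60 ± 0.22, adjusted p = 0.000179) and 2.43-fold higher than in GFP-low cells (1.28 ± 0.24, adjusted p = 0.00301). Unc5d, known in mouse cortex from multipolar neurons of the subventricular zone, had 9.87, 10.28, 9.68 and 10.16 at E18, against 9.0 to 9.17 in GFP-high and 8.96 to 9.24 in GFP-low samples. It was 1.86-fold higher than in GFP-high cells (0.90 ± 0.15, adjusted p = 0.000958) and 1.88-fold higher than in GFP-low cells (0.91 ± 0.17, adjusted p = 0.00301). Dcc had 9.26, 8.81, 9.45 and 9.70 at E18, against 9.60, 10.33, 10.44 and 10.54 in GFP-high and 10.90, 10.53 and 10.57 in GFP-low samples. It was 1.90-fold lower than in GFP-high cells, where GFP-high replicate 1 overlapped the E18 range (−0.92 ± 0.24, adjusted p = 0.011), and 2.57-fold lower than in GFP-low cells without overlap (−1.36 ± 0.25, adjusted p = 0.00326). The netrin gene Ntn4 had 6.07, 6.73, 5.91 and 6.77 at E18, below all E14 Prominin-selected arrays. It was 2.35-fold lower than in GFP-high (−1.23 ± 0.23, adjusted p = 0.00143) and 2.33-fold lower than in GFP-low cells (−1.22 ± 0.24, adjusted p = 0.00476).

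Of the Eph system, Efnb1 was 2.36-fold lower at E18 than in GFP-high cells (−1.24 ± 0.19, adjusted p = 0.000395). Its difference from GFP-low cells was −0.80 ± 0.20 (adjusted p = 0.0175), a call lost without E14 GFP-low replicate 1 (adjusted p = 0.0505) or replicate 3 (adjusted p = 0.0761). Ephb1 was 2.40-fold higher than in GFP-high cells (1.26 ± 0.19, adjusted p = 0.000328) and 1.83-fold higher than in GFP-low cells (0.87 ± 0.20, adjusted p = 0.0107), where the call was lost without E14 GFP-low replicate 2 (0.66, adjusted p = 0.0507). By limma, 0 of 9 EphA receptors were called against GFP-high cells, with 2 at an unadjusted p under 0.05. Against GFP-low cells Epha3 was called (−0.60 ± 0.14, 1.52-fold lower, adjusted p = 0.00939), as was its ligand gene Efna5 (−0.70 ± 0.16, 1.62-fold lower, adjusted p = 0.0111). Plxnd1 had 5.85, 6.26, 6.09 and 5.22 at E18 and was 3.07-fold lower than in GFP-low cells (−1.62 ± 0.27, adjusted p = 0.00174), but not called against GFP-high cells.

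The age comparisons cross the control signals of the E14 Prominin-selected arrays given above. Without the E14 arrays that stood apart, 21 genes were called against GFP-high cells. This count cannot check the control signals. The arrays left out have Gapdh differences of 0.54 and 0.92, within the E18 range of −0.21 to 1.00, and those kept lie at 1.56 to 2.29. The summed neuron markers were 27560 to 32199 at E18, against 13621 to 17193 in GFP-high and 24538 to 26304 in GFP-low samples at E14. Of the 15 neuron markers, 10 were called higher and 1 lower against GFP-high, and 4 higher and 3 lower against GFP-low cells. The summed radial glia markers were 10202 to 14391 at E18, against 14125 to 19155 in GFP-high and 9419 to 10839 in GFP-low samples, with 9 of 12 called lower and 2 higher against GFP-high cells, and 7 lower and 2 higher against GFP-low cells. The summed Cajal-Retzius markers were 894 to 1697 at E18, against 684 to 839 and 3642 to 5022, with 6 of 8 called lower against GFP-low cells, and 3 higher and 2 lower against GFP-high cells. The summed basal progenitor markers were 3662 to 4464 at E18, against 12933 to 14984 in GFP-high and 8911 to 9386 in GFP-low samples. The summed interneuron markers were 3319 to 3726 at E18, against 416 to 733 and 612 to 967, and those of 6 oligodendrocyte lineage markers 1633 to 2714 at E18, against 129 to 158 and 92.9 to 113. Gad1, an interneuron marker, was at 9.64 at E18, against 6.61 in GFP-high and 7.09 in GFP-low samples. Their part in the differences of the guidance genes was not tested.

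**Figure D4:**
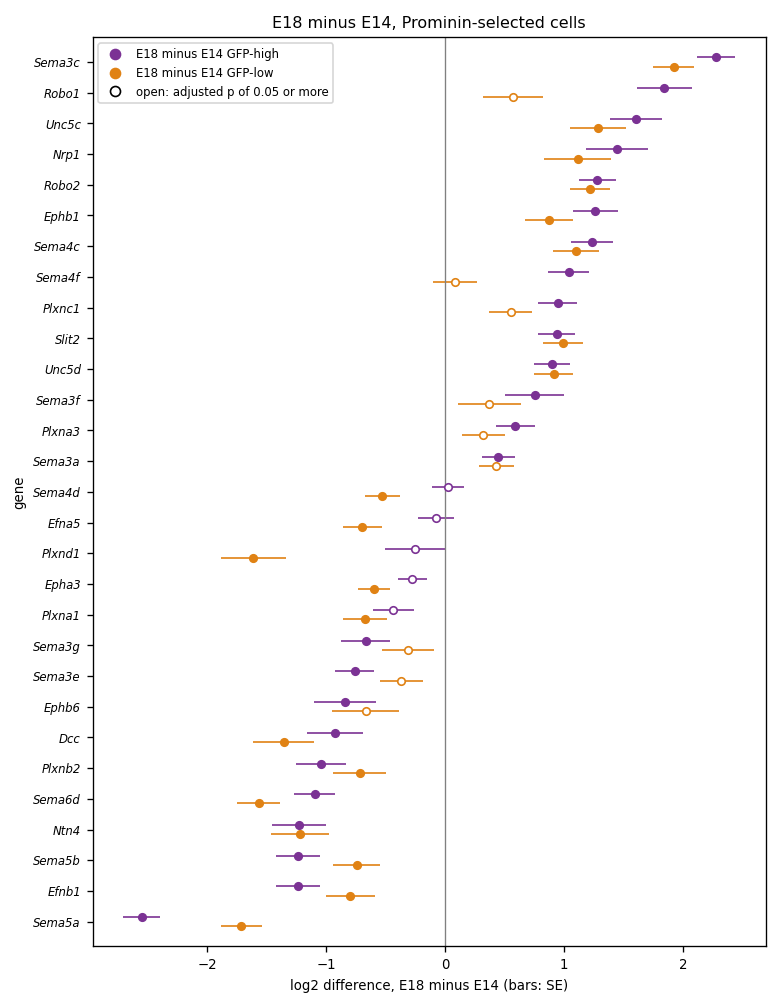
Difference between E18 and E14 Prominin-selected cells (log2, bars are SE) for the 29 guidance genes called in at least 1 of the 2 age comparisons, against E14 GFP-high cells (purple, n = 4 and 4) and E14 GFP-low cells (orange, n = 4 and 3). Filled points have an adjusted p under 0.05. Both sets of points share the 4 E18 arrays.

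The last comparisons set Prominin-selected against ungated cells of the same GFP gate at E14. Among GFP-high cells 22 of the 68 genes were called, 15 higher and 7 lower with the gate, where 20.7% of all genes were called, 11.8% higher and 8.98% lower. The median difference was 0.07 over the 68 genes and 0.02 over all genes, and the groups did not overlap for 28 of the 68, against 30.6% of all genes. Receptors gave 11 of the 15 rises, among them 4 of 5 netrin receptors and both Robo1 and Robo2. Dcc had 9.60, 10.33, 10.44 and 10.54 with the gate, against 8.45, 8.94 and 8.36 without it, and was 3.14-fold higher (1.65 ± 0.25, adjusted p = 0.000184). Robo1 had 6.89, 7.73, 8.00 and 7.78 with the gate, against 6.0, 6.01 and 5.85 without it, and was 3.12-fold higher (1.64 ± 0.22, adjusted p = 8.8e-05). Ephb1 was 2.73-fold higher (1.45 ± 0.21, adjusted p = 0.000165), Plxna4 2.51-fold (1.32 ± 0.22, adjusted p = 0.000518) and Plxna2, a plexin-A receptor gene, 2.31-fold (1.21 ± 0.23, adjusted p = 0.00119). Groups did not overlap for any of these 5. Plxnc1, the receptor gene of Sema7a, had 6.47, 6.91, 6.64 and 6.60 with the gate, against 7.68, 7.79 and 7.58 without it, and was 2.04-fold lower (−1.03 ± 0.19, adjusted p = 0.000937). With the labelling kit as a covariate 10 of the 68 genes were called, 9 higher and 1 lower. The differences then rest on ungated GFP-high replicate 1, which is assumed to vary like the other groups. MessageAmp arrays only, where this array stands alone, give the same differences and are no separate check. Among the lost calls were Robo2 (0.95, adjusted p = 0.0548), Ntn4 (−0.96, adjusted p = 0.1) and Sema5b (−0.97, adjusted p = 0.0685), whose differences kept their size. Other differences shrank. Unc5a had 6.58 to 6.88 with the gate, against 6.56 on ungated replicate 1 and 5.96 and 4.99 on ungated replicates 2 and 3. Sema7a had 7.96 to 8.59 with the gate, against 7.66 on ungated replicate 1 and 6.83 and 7.25 on replicates 2 and 3. With the gate, 8 of 15 neuron markers and 7 of 9 interneuron markers were called higher, and 7 of 12 radial glia markers lower. The summed neuron markers were 13621 to 17193 with the gate and 10833 to 11405 without it, and the radial glia markers 14125 to 19155 and 31052 to 35206. Their part in these differences was not tested.

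Among GFP-low cells 15 of the 68 genes were called, 5 higher and 10 lower with the gate, where 19.2% of all genes were called, 10.8% higher and 8.46% lower. Here kit and gate cannot be told apart, because all 3 ungated GFP-low arrays used the Affymetrix kit. The falls included 5 semaphorins and Robo1. Sema4c had 7.31, 7.39 and 7.43 with the gate, against 9.17, 9.61 and 8.64 without it, and was 3.39-fold lower (−1.76 ± 0.24, adjusted p = 0.000131). Sema6c was 3.24-fold lower (−1.70 ± 0.37, adjusted p = 0.00458) and Sema4d 2.47-fold lower (−1.30 ± 0.17, adjusted p = 8.7e-05), with no overlap. Robo1 was 2.07-fold lower (−1.05 ± 0.24, adjusted p = 0.00595), opposite in sign to its difference among GFP-high cells, which is the same difference of contrasts as tested above. Efna5 was 2.22-fold higher with the gate (1.15 ± 0.24, adjusted p = 0.00307), but the mean over its probe sets differed by 0.23 (adjusted p = 0.668). Unc5d had 9.24, 8.96 and 9.05 with the gate, against 7.71, 7.58 and 8.42 without it, and was 2.27-fold higher (1.18 ± 0.23, adjusted p = 0.0019). Without ungated GFP-low replicate 3 the count was 23, and it was 10 to 12 without any other single array. With only the groups compared in the fit, 8 were called, 1 higher (Unc5d) and 7 lower, and Efna5 was not among them (adjusted p = 0.0522). With the gate, 10 of 15 neuron markers were called lower, and 7 of 8 Cajal-Retzius, 6 of 9 interneuron and 6 of 12 radial glia markers were called higher. The summed neuron markers were 24538 to 26304 with the gate and 43091 to 50101 without it, and the Cajal-Retzius markers 3642 to 5022 and 452 to 654. Their part in these differences was not tested.

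Several genes have probe sets that disagree in these gate comparisons. Of the 45 genes with more than 1 probe set, some had another probe set called opposite in sign to the one used. These were 7 among GFP-high and 5 among GFP-low cells, against 0 in either GFP contrast. For E18 against E14 GFP-high and GFP-low cells they were 2 and 1. Among called genes with several probe sets, all shared the sign for 9 of 11 and 6 of 10 in the gate comparisons. This held for 14 of 17 and 12 of 14 in the age comparisons, and for 2 of 3 and 16 of 17 in the Prominin-selected and ungated GFP contrasts. For Nrp1 the probe set used gave −0.10 ± 0.27 between Prominin-selected and ungated GFP-high cells, while the other 3 gave 1.68 ± 0.18, 1.21 ± 0.27 and 1.34 ± 0.35. For Nrp2 the probe set used gave −0.05 ± 0.29, and the other 3 gave 1.59, 1.23 and 1.61. Epha4, called lower with the gate (−0.89 ± 0.23, 1.85-fold, adjusted p = 0.0106), had other probe sets at −1.20, 1.53, 0.92 and 1.24, and the mean over its probe sets was 0.32. At E18 against E14 GFP-high cells the Epha4 probe set used gave 0.13 ± 0.23 and 3 of its other 4 probe sets were called lower. These E14 Prominin-selected arrays are those with the large Gapdh difference, whose part in the disagreement was not tested. For Nrp1, Nrp2, Epha3 and Epha4 the size or sign of the difference between gated and ungated cells thus depends on the probe set. The Epha3 probe set used gave 0.09 ± 0.19, and its others −1.99, 0.72 and −2.03.

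**Figure D5:**
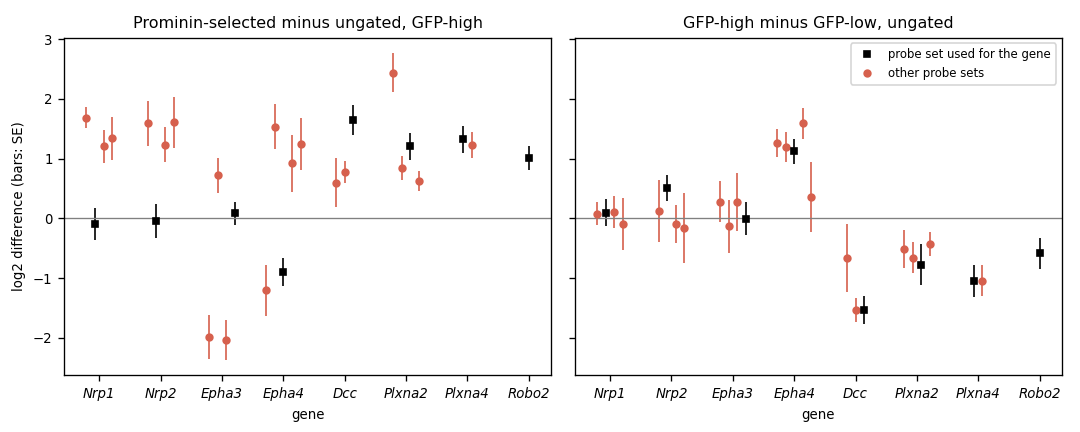
Differences (log2, bars are SE) of each probe set of 8 guidance genes between Prominin-selected and ungated GFP-high cells (left) and between GFP-high and GFP-low ungated cells (right). Black squares are the probe set used for the gene. On the left the probe sets of Nrp1, Nrp2, Epha3 and Epha4 spread over both signs or from 0 upward, and on the right those of a gene lie closer together.

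The 11 dim genes were called in none of the 6 pairwise comparisons. Among the brighter genes, Efnb2, Efna2, Epha5, Epha7, Nrp2, Sema4b and Sema6a were also called in none. The group means of Efnb2, a ligand that signals in both directions, spanned 0.20 over the 5 groups, those of Epha5 0.49 and those of Efna2 0.55. Sema6a, a membrane ligand of plexin-A2 and plexin-A4, differed by −1.20 ± 0.41 between ungated GFP-high and GFP-low cells and missed the threshold (adjusted p = 0.103).

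Signalling partners of the receptors were taken from 4 lists, of which 63 of 67 genes were measured. In the Prominin-selected GFP contrast 4 of 63 were called, against 1.68% of all genes, all lower in GFP-high cells: the adhesion genes Chl1 (−0.91 ± 0.15) and Cntn2 (−0.78 ± 0.18), Flrt2, whose protein binds Unc5 receptors (−1.01 ± 0.13), and the actin-binding Ablim1 (−0.76 ± 0.13). In the ungated GFP contrast 28 were called lower and 7 higher, against 15.8% of all genes called, with a median of −0.65 over the 63. Cntn2 was 10.3-fold lower (−3.37 ± 0.25, adjusted p = 0.000643), Chl1 7.48-fold lower (−2.90 ± 0.16), Draxin, a secreted protein that binds netrin and Dcc, 5.97-fold lower (−2.58 ± 0.18), and the Robo effector Srgap1 5.35-fold lower (−2.42 ± 0.23). Dock1, a Rac exchange factor downstream of Dcc, was 4.74-fold higher (2.24 ± 0.25). At E18 against E14 GFP-high cells 26 were called higher and 13 lower (26.7% of all genes called), among them Chl1 (1.97 ± 0.14) and Kalrn (1.58 ± 0.17), an exchange factor downstream of EphB receptors, higher, and the cofilin kinase gene Limk1 (−1.78 ± 0.21) and the Slit-binding glypican gene Gpc1 (−1.76 ± 0.15) lower. Against E14 GFP-low cells 14 were called higher and 7 lower (17.4% of all genes called). Between gated and ungated cells 20 were called higher and 8 lower among GFP-high cells (20.7% of all genes called), and 4 higher and 21 lower among GFP-low cells (19.2% of all genes called), with Srgap1 4.72-fold lower (−2.24 ± 0.28). The GFP contrasts differed between gated and ungated cells for 20 of the 63, 17 positive and 3 negative, against 7.7% of all genes. The neuron markers given above were also lower in GFP-high cells in both sorts, and their part in these differences was not tested.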

How the data were processed

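RNA of 5 groups of sorted mouse cortical cells was hybridised to 17 single-colour arrays. The deposited values are intensities on a linear scale, 1 per probe set; how the authors summarised probes is not given in the sources used here. For the 45037 of 45101 probe sets that are not controls, 16 was added to the deposited intensities and log2 taken. These values were then quantile normalised over all arrays. Gene names came from the platform annotation: 34945 probe sets had 1 symbol, 932 several and 9160 none, and only the first kind was used. A gene took its brightest probe set by the mean over all arrays (18193 genes). Differences were tested, two-sided, with limma 3.58.1 in R 4.3.3 (lmFit, eBayes, Benjamini-Hochberg over all 18193 genes), a test first tried on simulated data. Contrasts among Prominin-selected groups used those 11 arrays, the ungated GFP contrast its 6, and the others all 17. Figures were drawn with matplotlib 3.10.9 in Python 3.11.15.

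Full values were meant for genes called in the Prominin-selected GFP contrast or in the difference of contrasts. They were also meant for up to 8 rises and 8 falls per comparison without overlap. Nrp1, Nrp2, Dcc, Robo1, Robo2, Epha4, Plxna4, Unc5d, Slit1 and Sema6a were to be named whatever their result. Not all of these values are printed, for example those of Sema6b in the ungated GFP contrast and of Plxnb1 and Slit2 for the gate in GFP-low cells. A gene left out of a paragraph may thus have been called. Pathway genes are up to 3 called genes per list and comparison with the lowest p. The genes, the lists of pathway genes and markers, and the tests were chosen with earlier results of these data known. Alternatives were the scaling, the pseudocount, the probe set rule, a filter on dim genes, the arrays fitted, the labelling kit, a replicate block and leaving out each array. The number of arrays limits the precision.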

Additional observations from a re-analysis of the deposited data

Results flagged for a closer look

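Of 103 sets of 4 arrays of 1 gene in 1 group, 5 held an array far from its 3 neighbours by Dixon's criterion, where chance gives about 1 in 20. Efna2 was at 9.16 in E18 replicate 3, against 8.54 to 8.56 on the other arrays of that group. Plxna2 was at 11.38 in E18 replicate 4, against 11.59 to 11.61. Efna4 was at 7.30 and Sema7a at 8.59 in E14 GFP-high Prominin-selected replicate 1, against 6.40 to 6.52 and 7.96 to 8.06 on the other arrays of that group. This is the array with the dap signal of 4145. Sema3f was at 6.42 in replicate 4 of the same group, against 6.70 to 6.75.

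The GFP contrast differed between Prominin-selected and ungated cells by limma's test of the difference itself for 11 genes. The difference of contrasts was positive for Robo1 (2.69), Ephb1 (2.37), Plxnd1 (1.85), Sema4g (1.85), Sema7a (1.82), Sema4f (1.80), Unc5a (1.74), Efna3 (1.59) and Sema4d (1.08), and negative for Ntn4 (−1.64) and Sema5b (−1.41). The direction within each array set can be read from the contrasts: Sema7a, for example, differed by −0.11 with the gate and by −1.93 without it, and Unc5a by −0.06 and −1.80. All ungated GFP-low arrays and 2 of the 3 ungated GFP-high arrays used another labelling kit than the Prominin-selected arrays. With the kit as a covariate 13 genes were called, the same result as without ungated GFP-high replicate 1, so the covariate is no separate check.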

How the results depend on the processing

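In the Prominin-selected GFP contrast 4 guidance genes were called, 0 with a pseudocount of 1, 2 with the mean over probe sets, 0 with the replicate block and 0 without the 2 E14 arrays that stood apart, the last an alternative chosen after seeing the data. For E18 against E14 GFP-low cells the count of 20 became 11 (6 higher, 5 lower) with the block. Replicate numbers were not taken as pairs, since 27 same-numbered pairs of arrays had correlations of their deviations of −0.14 to 0.04. Between Prominin-selected and ungated GFP-high cells the count of 22 became 10 with the kit as a covariate. MessageAmp arrays only, also chosen after seeing the data, gave the same differences, since both settings rest on ungated GFP-high replicate 1. In GFP-low cells the count of 15 became 8 (1 higher, 7 lower) with only the groups compared. The 11 differences of contrasts became 17 with a pseudocount of 64. Leaving out single arrays gave 0 to 4 calls for the Prominin-selected and 16 to 24 for the ungated GFP contrast, 20 to 22 and 15 to 19 for E18 against E14 GFP-high and GFP-low cells, 17 to 21 and 10 to 23 for the gate in GFP-high and GFP-low cells, and 10 to 15 for the difference of contrasts. The causes were not tested. Called in all alternatives were 0 of 4, 15 of 24, 18 of 24, 11 of 20, 8 of 22, 6 of 15 and 8 of 11 genes in the same order, and 1 called gene reversed, Epha4 for the gate in GFP-high cells, below. Values as deposited moved the median of all genes by 0.10 for E18 against E14 GFP-high cells, and scaling to the 75th percentile moved the share of higher among all called genes for E18 against E14 GFP-low cells to 24.1% from 34.6%.

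Genes named whatever their result changed sign as follows, of which Epha4 for the gate in GFP-high cells was called (−0.89) and the others were not. With the mean over probe sets, Epha4 was −0.87 and Sema6a −0.15 for E18 against GFP-high, and Epha4 −0.51 for E18 against GFP-low cells. For the gate in GFP-high cells that setting gave Epha4 0.32 (its other probe sets differ in sign), Nrp1 1.03 (adjusted p = 0.00183), Nrp2 1.10 (adjusted p = 0.00634) and Sema6a −0.087, and Nrp2 0.22 for the difference of contrasts. With the kit as a covariate, and likewise on MessageAmp arrays only, Sema6a was −0.38 and Slit1 −0.056, and with a pseudocount of 64 Sema6a was −0.0057. With scaling to the 75th percentile, Unc5d was −0.0082 in the Prominin-selected and Nrp1 −0.0045 in the ungated GFP contrast, and for E18 against GFP-high cells Slit1 was 0.095 and Epha4 −0.083. Slit1 was 0.22 there with values as deposited. Without the arrays that stood apart, Unc5d was −0.045 in the Prominin-selected GFP contrast, and Slit1 0.041 and Epha4 −0.064 for E18 against GFP-high cells. With the block Epha4 was −0.0040 in the Prominin-selected GFP contrast.

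When single arrays were left out, these ranges spanned 0. In the Prominin-selected GFP contrast they were −0.086 to 0.32 for Epha4, −0.043 to 0.28 for Nrp2, −0.17 to 0.11 for Robo2 and −0.051 to 0.091 for Unc5d, and in the ungated one −0.059 to 0.36 for Unc5d. For E18 against GFP-high cells they were −0.064 to 0.34 for Epha4 and −0.20 to 0.072 for Slit1. For the gate in GFP-high cells they were −0.23 to 0.13 for Nrp1, −0.22 to 0.10 for Nrp2, −0.44 to 0.33 for Sema6a and −0.075 to 0.21 for Slit1, and in GFP-low cells −0.045 to 0.25 for Epha4. For the difference of contrasts Unc5d ranged over −0.35 to 0.071.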
